A study of Mus musculus with 2 samples.

Results

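The genes of the cell cycle and of its mitotic checkpoints were described in primary chondrocytes of mice, from 1 library of control cells and 1 of *Myl3*-KO cells. The members were selected by annotation: genes assigned to the KEGG cell cycle pathway and not to the DNA replication pathway, without the D cyclins, the CDK inhibitors, the SMAD and TGF-beta genes, *Trp53*, *Mdm2* and *Gadd45a*. This gave 96 of the 22156 genes of the table. The pathway was picked on values of the same libraries, in which proliferation genes were already known to be lower in *Myl3*-KO. The ratios below therefore describe the members and were not tested. The cells were cartilage cells of newborn mice, labelled as rib cartilage, which were grown as a monolayer in medium with serum and received no treatment. The *Myl3*-KO cells carried a floxed *Myl3* gene and a Cre recombinase driven by the *Col2a1* promoter, which is active in chondrocytes. The study's methods describe the controls as floxed littermates without Cre on the same C57BL/6J background, whereas the sample labels call them wild type. How many animals were pooled in each library is not given in the sources used here.

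Cells enter division through waves of cyclin-dependent kinase (CDK) activity. In G1, CDK4, CDK6 and CDK2 inactivate the retinoblastoma family of pocket proteins, which frees E2F factors to switch on the genes of DNA synthesis, while replication origins are licensed once per cycle. In G2, CDK1 with cyclin A or cyclin B starts mitosis. The spindle assembly checkpoint then holds the anaphase-promoting complex (APC/C) inactive until every chromosome is attached, after which securin and cyclin B are destroyed and separase opens the cohesin rings. In cartilage, dividing chondrocytes form the proliferative zone of the growth plate, and cultured chondrocytes divide in a monolayer.

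Each gene had an expected count, an estimate of its reads, and an FPKM value, which is divided by transcript length and library size and is the scale on which genes can be compared with each other. Expected counts summed to 17612434.91 for the control library and 13477976.98 for the *Myl3*-KO library. For the comparison of the libraries, counts were scaled to counts per 1000000 (CPM), and the log2 ratio of *Myl3*-KO to control is given with a 95% Clopper-Pearson interval of the counts. This interval covers counting error only. With 1 library for each genotype, no difference had a replicate check, and a difference between the cultures other than genotype cannot be told apart from the deletion. *Myl3* itself had 0 counts in both libraries, which allows up to 0.170 CPM in control and 0.223 CPM in *Myl3*-KO cells, so it could not check the labels. Of 12 chondrocyte markers, *Acan*, *Hapln1*, *Matn1* and *Matn3* were at 0 in both libraries, and the markers summed to 110 CPM in control cells and 97.0 in *Myl3*-KO cells. The chondrocyte factor gene *Sox9* was lower, with 866 and 480 counts (log2 ratio -0.47, 95% interval -0.63 to -0.30). The other chondrocyte markers with at least 10 counts over both libraries had intervals that spanned a ratio of 1. They were *Sox5* (0.00), *Col11a1* (0.10), *Col2a1* (0.23), *Chad* (0.58) and *Sox6* (-0.61). *Col2a1* had only 30 and 27 counts. Of 8 fibroblast markers, 1 (*Thy1*) was at 0, and the list summed to 14799 and 16903 CPM. In that list *Dcn* and *Lum* were lower, at log2 ratios of -1.64 and -1.36, and *Pdgfra* was higher at 0.61. The collagen genes *Col1a1*, *Col1a2* and *Col3a1*, the best counted of the fibroblast markers, were at 0.15, 0.22 and 0.01. Markers of immune cells (7 genes, 2.39 and 2.52 CPM), endothelial cells (5 genes, 0.397 and 0.890 CPM), muscle (6 genes, 0.0568 and 0.148 CPM) and erythroid cells (4 genes, 0 and 0.0742 CPM) were close to absent. The part of these differences between the cultures in the cell cycle ratios was not tested.

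Most cell cycle genes were slightly lower in *Myl3*-KO, and the largest differences were in cyclin E2, CDK1 and cyclin B1. Of the 96 genes, 92 had at least 10 counts over both libraries. The others were the germ cell cohesin gene *Smc1b* (1 count in control cells and 0 in *Myl3*-KO cells), *Ccna1* (1 and 1), *Wee2* (0 and 1) and *Ccnb3* (0 and 0), which are known mainly from germ cells. Of the 92 genes, 72 had a log2 ratio below 0, or 78.3%, against 47.3% of the 12431 genes of the table that had as many counts (the genes tested). The median log2 ratio of the cell cycle genes was -0.13, with a range of -0.58 to 0.39, and the median of all those genes was 0.02. Summed over the members, the level went from 13682 CPM in the control to 12600 CPM in *Myl3*-KO cells (log2 ratio -0.12, 95% interval -0.13 to -0.11). In bulk RNA, fewer dividing cells and less of these RNAs in each cell cannot be told apart.

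A gene was called lower or higher where it was at least 20% lower, or higher by the same factor, which is 0.32 on the log2 scale, and its counting interval left out a ratio of 1. By this rule 7 of the 92 cell cycle genes, or 7.61%, were called lower, and 5.44% of all genes tested were. None of the 92 was called higher, where 9.47% of all genes tested were. The 7 genes were *Ccne2*, *Cdk1*, *Ccnb1*, *Mad2l1*, *Orc6*, *Cdc6* and *Ccna2*, and the share called lower is near that of all genes. *Ccna2* lay just inside the limit at -0.33, and *Bub1* and *Wee1* lay just outside it at -0.32 each. No member differed by as much as 1.5-fold.

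Without a limit on the fold, the counting interval lay below a ratio of 1 for 49 of the 92 genes, or 53.3%, against 20.1% of all genes tested. It lay above for 10 genes, or 10.9%, against 22.2%. Cell cycle genes were counted more deeply than most, with a median of 2791 counts over both libraries against 1053, and deeper counts give narrower intervals. Among genes with at least 1000 counts, a limit added after the data were seen, the interval lay below for 47 of 80 cell cycle genes, or 58.8%, against 31.3% of all such genes. In this subset 81.2% of the cell cycle genes had a log2 ratio below 0, against 52.5%. The differences of the cell cycle genes were thus small and mostly in 1 direction.

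**Figure D1:**
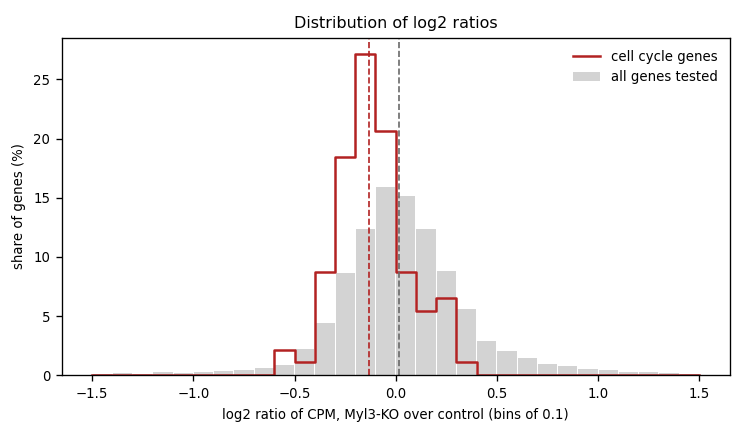
Share of genes (%) in bins of 0.1 of the log2 ratio of *Myl3*-KO to control, for the 12431 genes tested (grey bars) and the 92 cell cycle genes tested (red line), with dashed lines at the medians of 0.02 and -0.13. Bins from -1.5 to 1.5 are shown, and the cell cycle genes fill a narrower range that is shifted to the left.

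The genes that start mitosis held the largest summed difference. CDK1 is the kinase that drives mitotic entry, cyclins A2, B1 and B2 activate it, WEE1 and PKMYT1 inhibit it, and CDC25 phosphatases remove that inhibition. Of 13 genes of this group, 11 were tested, with a median log2 ratio of -0.21. Their sum was 1174 CPM in control cells and 940 CPM in *Myl3*-KO cells, a log2 ratio of -0.32 (95% interval -0.35 to -0.29). *Cdk1* (ENSMUSG00000019942, chromosome 10 from 69335146 to 69352938 on GRCm38) had 4417 counts in control cells and 2360 in *Myl3*-KO cells, or 251 and 175 CPM. It was thus 30.2% lower in *Myl3*-KO cells, at -0.52 on the log2 scale (95% interval -0.59 to -0.45). *Ccnb1* (ENSMUSG00000041431, chromosome 13 from 100778650 to 100786570), which encodes cyclin B1, had 4507 and 2473 counts, or 256 and 183 CPM, and a log2 ratio of -0.48 (95% interval -0.55 to -0.41). The kinase and its mitotic cyclin were lower by nearly the same factor, and their intervals overlap.

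*Ccna2* (ENSMUSG00000027715, chromosome 3 from 36564865 to 36572150), the cyclin of S phase and early mitosis, had 5347.7 counts in control cells and 3246.69 in *Myl3*-KO cells, or a log2 ratio of -0.33 (95% interval -0.40 to -0.27). *Ccnb2*, encoding cyclin B2, had 2481 and 1608 counts and a smaller difference of -0.24 (95% interval -0.33 to -0.15). The intervals of the B cyclins do not overlap. *Wee1*, the inhibitor of CDK1, was lower together with its target, with 552 and 339 counts (log2 ratio -0.32, 95% interval -0.52 to -0.12). *Plk1*, a kinase of mitotic entry and spindle assembly, had 1058 and 703 counts (log2 ratio -0.20, 95% interval -0.34 to -0.06).

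Other genes of the group did not share this direction or were too weakly counted to show one. *Cdc25c* had 343 counts in control cells and 263 in *Myl3*-KO cells (log2 ratio 0.00, 95% interval -0.23 to 0.24), and *Pkmyt1* had 241 and 185.8 (0.01, -0.27 to 0.29). At this depth neither ratio could be told from 1. *Cdc25b* had 844 and 734 counts and *Cdc14b*, a phosphatase gene, 818 and 713, with log2 ratios of 0.18 (95% interval 0.04 to 0.33) and 0.19 (0.04 to 0.33), so that their intervals lay above a ratio of 1. After the median of all genes of like GC content and length was subtracted, the ratios were smaller, at 0.09 for *Cdc25b* and 0.14 for *Cdc14b*. *Cdc14a* was weakly counted, at 68 and 45 (log2 ratio -0.21, 95% interval -0.79 to 0.35).

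The promoters of the mitotic genes with the lowest ratios are shown because many G2 and M phase genes share promoter elements. These are the cell cycle genes homology region (CHR, here the letters TTTGAA), read by the DREAM and MuvB complexes, and CCAAT boxes (ATTGG on the other strand), read by NF-Y. The sequences are the 250 bases before the RefSeq start on GRCm38.p6, 5′ to 3′ on the strand of the gene, and capitals mark matches to either motif on either strand. They also mark TTTAAA, a variant of the CHR that was added after the sequences were seen. The set of RefSeq promoters used here held 79 of the 96 genes, and *Ccna2* and *Wee1* were not among them. The genes are *Cdk1* (chr10:69352913-69353162, minus strand), *Ccnb1* (chr13:100786487-100786736, minus strand), *Mad2l1* (chr6:66534971-66535220, plus strand) and *Bub1* (chr2:127831860-127832109, minus strand).
Cdk1: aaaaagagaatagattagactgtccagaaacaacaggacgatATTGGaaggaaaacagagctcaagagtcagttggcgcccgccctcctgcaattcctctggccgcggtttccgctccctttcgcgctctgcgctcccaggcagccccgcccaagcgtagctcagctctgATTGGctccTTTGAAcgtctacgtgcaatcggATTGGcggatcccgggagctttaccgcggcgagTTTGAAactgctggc
Ccnb1: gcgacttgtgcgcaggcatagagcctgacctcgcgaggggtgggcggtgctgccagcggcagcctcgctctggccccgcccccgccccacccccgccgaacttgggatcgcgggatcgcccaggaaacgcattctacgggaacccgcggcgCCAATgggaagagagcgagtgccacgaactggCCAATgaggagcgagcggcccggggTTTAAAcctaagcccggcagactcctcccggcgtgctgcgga
Mad2l1: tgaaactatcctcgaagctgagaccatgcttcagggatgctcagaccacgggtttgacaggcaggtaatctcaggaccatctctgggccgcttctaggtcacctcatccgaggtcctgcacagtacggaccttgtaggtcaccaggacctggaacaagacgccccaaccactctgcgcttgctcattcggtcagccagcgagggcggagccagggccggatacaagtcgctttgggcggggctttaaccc
Bub1: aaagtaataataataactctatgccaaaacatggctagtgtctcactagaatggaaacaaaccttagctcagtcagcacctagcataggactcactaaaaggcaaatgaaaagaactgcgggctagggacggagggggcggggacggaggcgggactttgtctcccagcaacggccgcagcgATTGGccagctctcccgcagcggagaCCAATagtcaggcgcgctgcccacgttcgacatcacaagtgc

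In *Cdk1*, TTTGAA lay at 71 to 66 and at 15 to 10 bases before the start, and ATTGG at 208 to 204, 80 to 76 and 48 to 44 bases before it. *Ccnb1* held reverse complements of ATTGG at 99 to 95 and 67 to 63 bases, and TTTAAA at 42 to 37 bases before the start. *Bub1* held ATTGG at 68 to 64 bases and its reverse complement at 42 to 38. The window of *Mad2l1* held none of these letters, although its ratio was among the lowest. This window ends at 66535220, whereas the GENCODE M21 gene begins further downstream, at 66535390. The bases between these positions were not searched, so the absence holds for the printed window only. The GENCODE M21 genes begin upstream of the RefSeq starts for 3 of these windows, by 84 bases in *Ccnb1*, 26 in *Cdk1* and 6 in *Bub1*.

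Over the 100 promoter windows of the 79 genes, searched on both strands, 16.0% held TTTGAA, the same share as the 16.0% of all 32851 windows of the RefSeq table. TTTAAA was held by 10.0% of them against 12.1% of all windows. ATTGG was more common, in 44.0% of the windows against 33.85%, and so was TTCCCGC, letters of the E2F site, in 11.0% against 3.82%. None of these motifs contains another, and TTTAAA is its own reverse complement. By phase, the G2/M entry group held TTTGAA in 4 of 12 windows and ATTGG in 8, and the spindle checkpoint group held ATTGG in 6 of 10. TTTAAA, the variant added later, was in 4 of the 12 windows of G2/M entry. It was in 0 windows of the spindle checkpoint, APC/C and cohesin groups, and in 3 of 19 of G1/S transcription control. ATTGG was also in 5 of 7 windows of the DNA damage group and 4 of 6 of the cohesin group. Over the G2/M entry, spindle checkpoint, APC/C and cohesin groups together it was in 24 of 43 windows, or 55.8%. Over the other groups together it was in 20 of 57 windows, or 35.1%. TTCCCGC was in 0 windows of the G2/M entry and spindle checkpoint groups, in 4 of 14 windows of the origin genes and in 2 windows of the cohesin group. Some genes have overlapping windows, and a match of letters is not evidence of binding.

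Spindle assembly checkpoint genes were mostly lower as well. MAD2 and BUBR1 (*Bub1b*) form, with BUB3 and CDC20, the complex that inhibits the APC/C, and BUB1 and TTK (MPS1) are kinases that recruit them to kinetochores. The 7 genes had a median log2 ratio of -0.17 and summed to 802 CPM in control cells and 682 CPM in *Myl3*-KO cells. *Mad2l1* (ENSMUSG00000029910, chromosome 6 from 66535390 to 66547220), encoding MAD2, had 3267 counts in control cells and 1933 in *Myl3*-KO cells, a log2 ratio of -0.37 (95% interval -0.45 to -0.29). *Bub1* (ENSMUSG00000027379, chromosome 2 from 127801122 to 127831865) had 2088 and 1279 counts (log2 ratio -0.32, 95% interval -0.42 to -0.22). *Bub1b* had 3518 and 2251 (-0.26, -0.34 to -0.18).

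The remaining checkpoint genes differed less. *Bub3* had 2403 and 1637 counts (log2 ratio -0.17, 95% interval -0.26 to -0.08) and *Ttk* 1292 and 890 (-0.15, -0.28 to -0.03). *Mad1l1*, encoding the kinetochore anchor of MAD2, had 1316 and 1034 counts and a ratio that could not be told from 1 (0.04, -0.08 to 0.16), as had *Mad2l2* with 235 and 170 counts. MAD2 and its anchor therefore had intervals that do not overlap.

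The target of the checkpoint, the APC/C, was close to equal in the libraries by its summed level. Its 14 genes, subunits and activators together, summed to 1941 CPM in control cells and 1907 CPM in *Myl3*-KO cells (log2 ratio -0.03, 95% interval -0.05 to -0.0018), with a median of -0.06, or -0.11 with bins of GC content and length subtracted (from each ratio, the median of all genes of like GC content and length). *Cdc20*, the activator in mitosis, had 2390 and 1665 counts (log2 ratio -0.14, 95% interval -0.23 to -0.04). *Fzr1*, encoding CDH1, the activator in late mitosis and G1, had 1280 and 957 counts (-0.03, -0.16 to 0.09). With the bins subtracted, *Cdc20* was at -0.11 and *Fzr1* lower, at -0.19. The subunits ranged from *Anapc10*, the substrate co-receptor, with 614 and 385 counts (-0.29, -0.47 to -0.10), to *Anapc2*, the cullin subunit, with 3175 and 2880 counts (0.25, 0.17 to 0.32). *Anapc2* is on chromosome 2 from 25272478 to 25285915. *Cdc27* was also lower, with 2818 and 1845 counts and a log2 ratio of -0.23 (95% interval -0.31 to -0.14). Subunits of one complex thus lay on both sides of a ratio of 1, with intervals apart from it.

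Among the genes of sister chromatid cohesion, *Pttg1* had the lowest ratio. It encodes securin, the inhibitor of separase that the APC/C destroys, and had 1354 counts in control cells and 838 in *Myl3*-KO cells (log2 ratio -0.31, 95% interval -0.43 to -0.18). *Espl1*, encoding separase, had 1750 and 1318 counts (-0.02, -0.13 to 0.08), and the intervals of inhibitor and protease do not overlap. This order depended on the processing: with the bins of GC content and length subtracted, *Pttg1* was at -0.18 and *Espl1* lower, at -0.30. *Rad21*, the cohesin subunit that separase cuts, had 7605 and 4999 counts (-0.22, -0.27 to -0.17). *Stag1*, encoding a cohesin subunit, had 2375 and 1557 (-0.22, -0.32 to -0.13). The ring subunits *Smc3* (5804 and 4278 counts) and *Smc1a* (5570 and 4171) were near equal, with log2 ratios of -0.05 and -0.03. *Stag2*, with 4319 and 3000 counts, was at -0.14 (95% interval -0.21 to -0.07), but its FPKM went from 49.98 to 53.49, the other way.

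**Figure D2:**
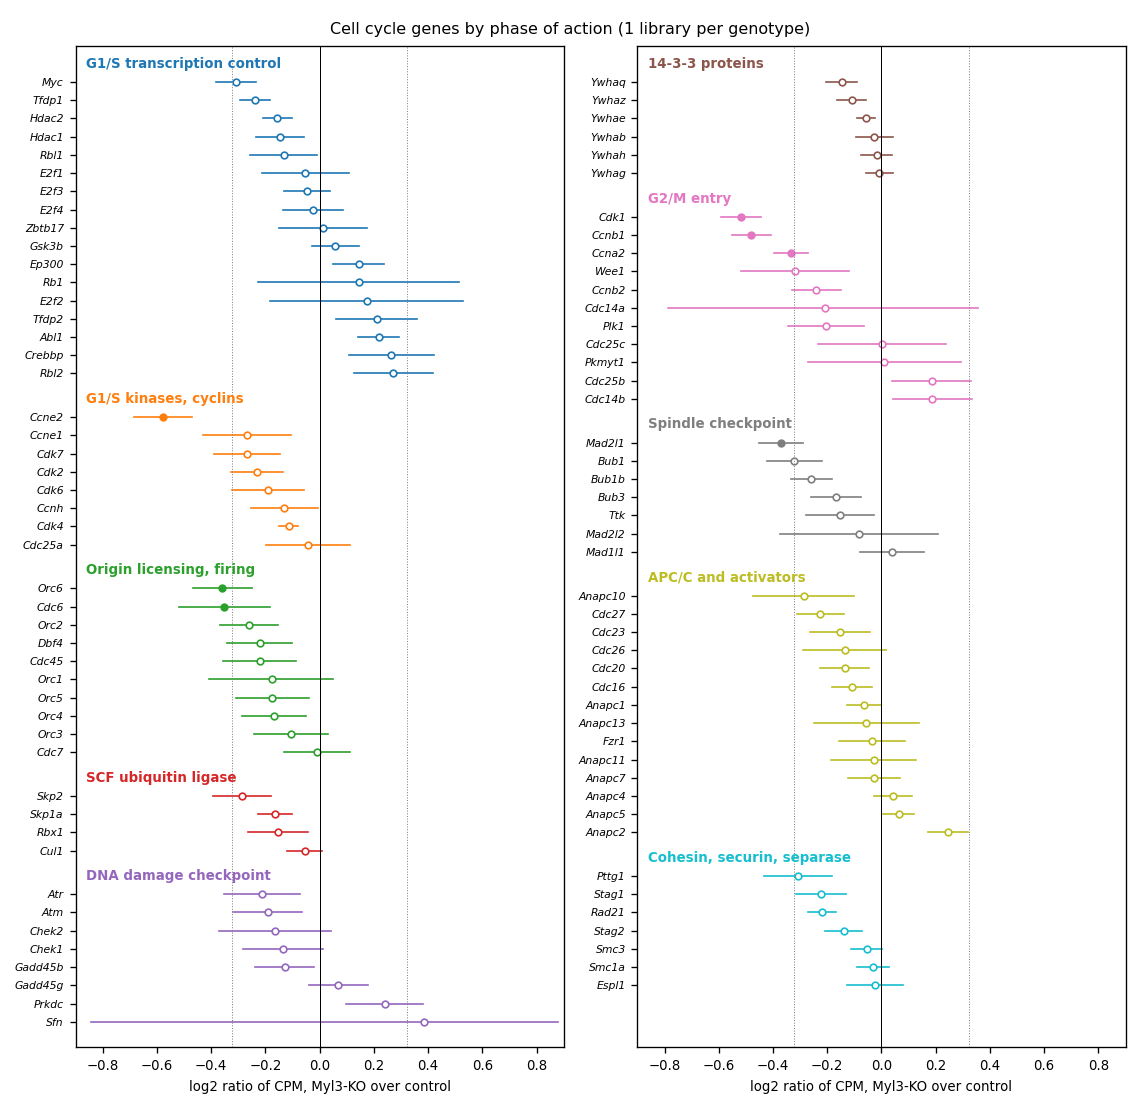
Log2 ratio of CPM of *Myl3*-KO to control for each of the 92 cell cycle genes tested, by phase group, with bars for the 95% counting interval (drawn to the edge of the panel for *Sfn*) and 1 library per genotype. Filled points mark the 7 genes called lower, dotted lines the limit of 0.32 in either direction, and only the groups of G1/S transcription control, G2/M entry, APC/C and DNA damage hold genes whose interval lies above 0.

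In the G1/S group of kinases and cyclins, all 8 genes tested had a log2 ratio below 0, and for 7 of them the interval lay below a ratio of 1. *Ccne2* (ENSMUSG00000028212, chromosome 4 from 11191351 to 11204779) had the lowest ratio of all members. It encodes cyclin E2, an activator of CDK2 at the entry into S phase, and had 2146 counts in control cells and 1101 in *Myl3*-KO cells, or 122 and 81.7 CPM. It was 33.0% lower, a log2 ratio of -0.58 (95% interval -0.68 to -0.47). Its paralogue *Ccne1* had 804 and 511 counts (log2 ratio -0.27, 95% interval -0.43 to -0.11), and the intervals of the E cyclins do not overlap. On the FPKM scale the E cyclins were at -0.09 for *Ccne1* and -0.58 for *Ccne2*. *Cdk2*, their kinase, had 2213 and 1443 counts (-0.23, -0.33 to -0.13).

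The kinases of the D cyclins differed less than cyclin E2. *Cdk6* had 1174 and 787 counts (log2 ratio -0.19, 95% interval -0.32 to -0.06) and *Cdk4* had 15680.84 and 11087.33 (-0.11, -0.15 to -0.08). On the FPKM scale the log2 ratio of *Cdk6* was only -0.02. *Cdk4* was the most abundant member per length, at 524.81 FPKM in control cells and 481.28 in *Myl3*-KO cells, against 6.15 and 6.05 for *Cdk6*. *Cdk7* and *Ccnh*, which encode the kinase and cyclin of the CDK-activating complex, had log2 ratios of -0.27 (95% interval -0.39 to -0.15) and -0.13 (-0.25 to -0.01). On the FPKM scale these 2 genes were alike, at -0.29 for *Cdk7* and -0.30 for *Ccnh*. For *Cdc25a*, with 813 and 604 counts, the interval spanned a ratio of 1.

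Replication origin genes were lower in the same range as the kinases. The origin recognition complex and CDC6 load the replicative helicase, and CDC7 with its activator DBF4 and CDC45 fire the origin. All 10 genes had a log2 ratio below 0, with a median of -0.20 and a sum of 698 CPM in control cells and 604 CPM in *Myl3*-KO cells. *Orc6* (ENSMUSG00000031697, chromosome 8 from 85299632 to 85308278) had 1846.01 and 1101 counts (log2 ratio -0.36, 95% interval -0.47 to -0.25). *Cdc6* (ENSMUSG00000017499, chromosome 11 from 98907801 to 98923940) had 785 and 471 (-0.35, -0.52 to -0.18). *Orc2*, *Dbf4* and *Cdc45* followed at -0.26, -0.22 and -0.22. The interval spanned a ratio of 1 for *Orc1* (-0.18, -0.41 to 0.05), *Orc3* (-0.11, -0.24 to 0.03) and *Cdc7*. The kinase gene *Cdc7* had 1282 and 974 counts and a log2 ratio of -0.01 (95% interval -0.13 to 0.11), whereas its activator *Dbf4* had 1417 and 930 counts (-0.22, -0.34 to -0.10).

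The SCF complex is the ubiquitin ligase that removes CDK inhibitors and cyclin E. *Skp2*, encoding a substrate receptor that recognises p27, had 1829 counts in control cells and 1147 in *Myl3*-KO cells (log2 ratio -0.29, 95% interval -0.39 to -0.18). The adaptor *Skp1a* and the RING subunit *Rbx1* were at -0.16 and -0.15, and the cullin *Cul1*, with 4484 and 3303 counts, was at -0.06 (95% interval -0.12 to 0.01). The receptor gene *Skp2* thus had the lowest ratio of the 4 genes.

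The G1/S transcription regulators were mixed in direction. Of 17 genes, 8 had a log2 ratio below 0, and the median was 0.01, which turned to -0.0158 with TMM factors, -0.0126 with DESeq2 size factors, -0.0248 among genes of at least 1000 counts and -0.0548 with bins of GC content and length subtracted. Their sum went from 2130 to 2028 CPM (log2 ratio -0.07, 95% interval -0.09 to -0.05). The interval lay below a ratio of 1 for 5 genes and above it for 5. *Myc*, encoding a growth-promoting transcription factor, had 4032 counts in control cells and 2492 in *Myl3*-KO cells (log2 ratio -0.31, 95% interval -0.38 to -0.24), and *Tfdp1*, the main partner of the E2Fs, had 7020 and 4554 (-0.24, -0.29 to -0.18). On the other side, *Rbl2*, encoding the pocket protein p130 of resting cells, had 814 and 752 counts (0.27, 0.13 to 0.42). The lysine acetyltransferase genes *Crebbp* (703 and 646 counts) and *Ep300* (2053 and 1735 counts) had log2 ratios of 0.26 (95% interval 0.11 to 0.42) and 0.14 (0.05 to 0.24), and the kinase gene *Abl1* was at 0.22 (0.14 to 0.29). With the bins of GC content and length subtracted, *Rbl2* was still at 0.29, but *Crebbp* and *Ep300* were at 0.06 and 0.03, and *Abl1* turned to -0.06.

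Paralogues in this group lay apart, a comparison chosen after the values were seen. *Rbl1*, encoding the pocket protein p107 of dividing cells, had 1309 and 914 counts and a log2 ratio of -0.13 (95% interval -0.26 to -0.01), below that of *Rbl2* with no overlap of the intervals. *Tfdp2* had 785 and 695 counts and was at 0.21 (0.06 to 0.36), opposite to *Tfdp1*. *Rb1*, the founding pocket protein, was weakly measured, with 136 and 115 counts and 1.66 and 1.83 FPKM (log2 ratio 0.14, 95% interval -0.23 to 0.51). The activating factors *E2f1* (752 and 555 counts), *E2f2* (146 and 126) and *E2f3* (2565 and 1900) had log2 ratios of -0.05, 0.17 and -0.05, and none of their intervals left out a ratio of 1. *Hdac1* and *Hdac2*, histone deacetylase genes, were alike at -0.15 and -0.16.

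DNA damage checkpoint genes showed small differences both ways. The sensor kinases *Atr* (1035 and 684 counts) and *Atm* (1245 and 834 counts) had log2 ratios of -0.21 (95% interval -0.35 to -0.07) and -0.19 (-0.32 to -0.06). *Prkdc*, encoding the related kinase of end joining, had 864 and 781 counts and a ratio on the other side (0.24, 0.10 to 0.38). The effector kinases *Chek1* (916 and 638 counts) and *Chek2* (473 and 323 counts) were at -0.14 and -0.16, with intervals that span a ratio of 1. *Gadd45b* and *Gadd45g*, stress-induced growth arrest genes, were at -0.13 (95% interval -0.24 to -0.02) and 0.07 (-0.04 to 0.18). *Sfn*, encoding 14-3-3 sigma, had 13 counts in each library, and its interval of -0.84 to 1.61 holds no information on direction.

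The 14-3-3 genes, whose proteins hold CDC25 phosphatases in the cytoplasm, were the most even group. All 6 had a log2 ratio below 0, from -0.15 for *Ywhaq* (6155.3 and 4255.22 counts) to -0.01 for *Ywhag* (7257 and 5525 counts). *Ywhae* was the most abundant of them at 456.46 FPKM in control cells and 437.1 in *Myl3*-KO cells. For *Ywhab*, *Ywhah* and *Ywhag* the interval spanned a ratio of 1.

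Ordered by median log2 ratio, the groups ran from the G1/S kinases and cyclins and the G2/M entry genes (-0.21 each) over origins (-0.20), spindle checkpoint (-0.17), SCF (-0.16), cohesin (-0.14) and DNA damage (-0.13) to the APC/C (-0.06), the 14-3-3 genes (-0.04) and G1/S transcription control (0.01). Ranges of neighbouring groups overlap, and with 1 library for each genotype the order was not tested. It also changed with the processing: with bins of GC content and length subtracted, the medians were -0.19 for the G1/S kinases and cyclins, -0.16 for cohesin, -0.15 for the spindle checkpoint and for G2/M entry, -0.12 for origins, -0.11 for the APC/C, -0.07 for DNA damage, -0.05 for G1/S transcription control, -0.04 for SCF and -0.03 for the 14-3-3 genes. By summed level, which the abundant genes decide, the order was led by G2/M entry at -0.32, followed by the spindle checkpoint at -0.23 (95% interval -0.27 to -0.19) and the origins at -0.21 (-0.25 to -0.17).

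**Figure D3:**
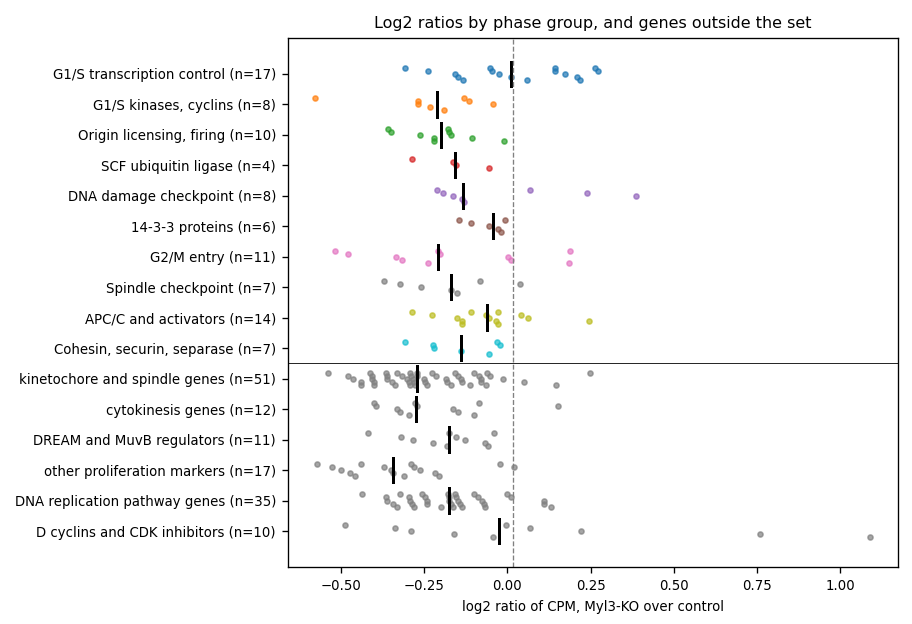
Log2 ratios of CPM of *Myl3*-KO to control, 1 point per gene tested and a black bar at each median, for the 10 phase groups (coloured) and for genes outside the set (grey), with a dashed line at the median of all genes tested (0.02). The medians of the kinetochore genes (-0.27) and of the other proliferation markers (-0.34) lie to the left of every phase group, and *Ccnd1* is the point farthest to the right at 1.09.

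Per transcript length, the members spanned a wide range of levels. After *Cdk4* and *Ywhae*, the highest FPKM in the control were those of *Ywhaq* (210.42), *Skp1a* (207.38), *Hdac2* (196.06) and *Cdk1* (188). In *Myl3*-KO *Cdk1* was at 128.78 FPKM. The cyclins of mitosis stood at like levels in the control, with 103.4 FPKM for *Ccnb1*, 102.53 for *Ccna2* and 92.01 for *Ccnb2*, and at 74.22, 81.38 and 77.93 in *Myl3*-KO. Cyclin E2 exceeded cyclin E1 in both libraries, at 41.68 against 22.82 FPKM in the control and 27.94 against 21.5 in *Myl3*-KO, so that the distance between them was smaller in *Myl3*-KO. The lowest levels among genes tested were those of *Sfn* (0.46 and 0.6), *Cdc14a* (0.86 and 0.78), *Rb1* (1.66 and 1.83) and *E2f2* (1.75 and 1.97).

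**Figure D4:**
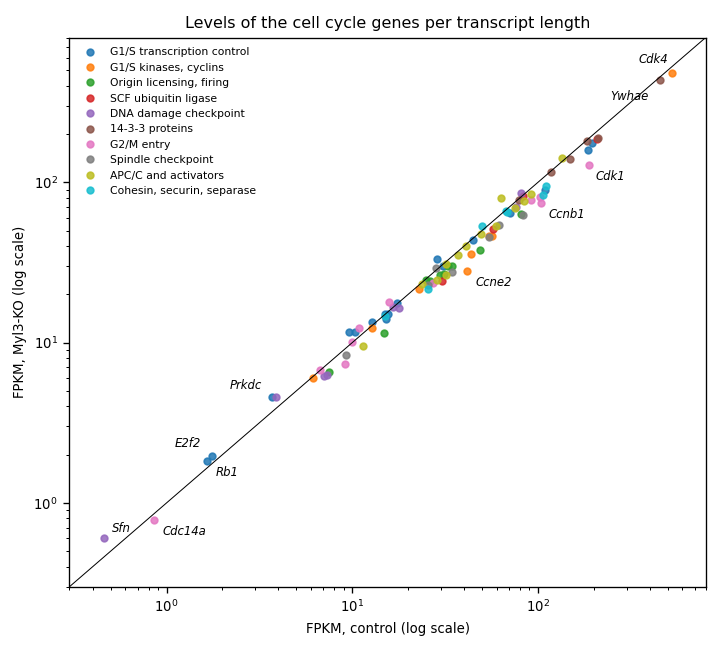
FPKM of the 92 cell cycle genes tested in the control (x axis) and in *Myl3*-KO (y axis), both on log scales, coloured by phase group, with a line of equal levels. *Cdk1*, *Ccnb1* and *Ccne2* lie visibly under the line, from 188 to 128.78, 103.4 to 74.22 and 41.68 to 27.94 FPKM.

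Genes of the mitotic machinery outside the KEGG pathway were lower as well, with a larger share past the limit, a difference that was not tested. Across 4 lists written with earlier results known (kinetochore and spindle, cytokinesis, DREAM and MuvB regulators, other proliferation markers), with members left out and each gene counted once, 27 of 87 genes tested, or 31.0%, were called lower and 0 higher, beside the 5.44% and 9.47% of all genes and the 7.61% of the pathway genes called lower. The median log2 ratio was -0.27. In the kinetochore and spindle list, 48 of 51 genes had a ratio below 0, led by *Hmmr*, which encodes a spindle assembly factor, with 1740 and 916 counts (-0.54, -0.66 to -0.42). *Knl1*, *Nuf2* and *Ndc80*, the platform on which the checkpoint is built, were at -0.41, -0.41 and -0.32. Of the 12 cytokinesis genes 4 were called, among them *Ect2* at -0.39. The proliferation markers with the lowest ratios were *Cks2*, encoding a CDK-binding subunit, with 2942 and 1513 counts (-0.57, -0.66 to -0.48), and *Tyms*, encoding thymidylate synthase, at -0.53. *Mki67*, the most used proliferation marker, had 7698 and 5796 counts and a log2 ratio of -0.02 (95% interval -0.07 to 0.03).

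Of 11 transcriptional regulators of mitotic genes 0 were called, too few genes to set against the 5.44% of all genes. *Foxm1*, the activator of G2/M genes, had 2703 and 1892 counts (log2 ratio -0.13, 95% interval -0.21 to -0.04), *Mybl2* had 827 and 542 (-0.22, -0.38 to -0.07) and the MuvB subunit *Lin54* had 931 and 571 (-0.32, -0.47 to -0.17). All 11 ratios were below 0. The 35 DNA replication genes, which include the *Mcm* helicase genes, had a median of -0.18, with 6 called lower, or 17.1% beside the 5.44%. Among the D cyclins and CDK inhibitors the direction differed. *Ccnd1*, the cyclin partner of CDK4 and CDK6, was called higher, with 136.14 counts in control cells and 221.72 in *Myl3*-KO cells (1.09, 0.78 to 1.41). *Cdkn2d*, encoding the CDK4 and CDK6 inhibitor p19, was called lower, with 424 and 257 counts (-0.34, -0.57 to -0.11). The intervals of *Ccnd3* (-0.29, -0.43 to -0.15) and *Cdkn2c* (-0.16, -0.27 to -0.05) also lay below a ratio of 1, and *Cdkn1a*, encoding p21, had only 22 and 12 counts. The best counted inhibitor genes had intervals that span a ratio of 1. They were *Cdkn2a* (8647 and 6417 counts, -0.04), *Cdkn1b* (3660 and 2937, 0.07) and *Cdkn2b* (2768 and 2111, -0.0049). Of the p53 genes set aside by the rule, *Gadd45a* was called higher, with 147 and 172 counts (0.61, 0.29 to 0.94), *Trp53* had 579 and 545 (0.30, 0.13 to 0.47), and *Mdm2*, the best counted, had 1714 and 1297 (-0.02, -0.12 to 0.09).

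GC content moved with the ratios over the whole table. In 5 equal bins of genes by GC content of the longest GENCODE M21 transcript, the median log2 ratio of all genes tested went from -0.08 in the lowest bin to 0.11 in the highest. Cell cycle transcripts had a median GC content of 46.6% against 49.7%. In each bin the median of the cell cycle genes lay below that of all genes, from -0.17 in the lowest bin (23 genes) to -0.02 in the highest (15 genes). After the median of each of 25 bins of GC content and length was subtracted, the median of the cell cycle genes was -0.09, with 69 of 92 genes below 0. Of the 7 genes called lower, *Cdk1*, *Ccnb1*, *Ccne2*, *Mad2l1* and *Cdc6* were still past the limit after this step, *Ccna2* (-0.25) and *Orc6* (-0.23) no longer were, and *Myc*, *Wee1* and *Skp2* passed it. That made 8 of 92 genes, or 8.70%, beside 4.71% of all genes.

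**Figure D5:**
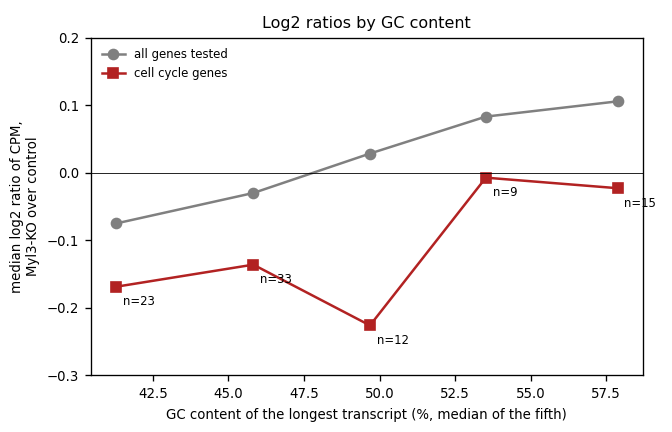
Median log2 ratio of CPM of *Myl3*-KO to control (y axis) in 5 bins of genes by GC content (x axis, median of each bin in %), for all genes tested (grey circles) and the cell cycle genes (red squares, number of genes beside each). The grey line goes from -0.08 to 0.11, and the red squares lie under it in each of the 5 bins, the middle one lowest at -0.23 with 12 genes.

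Some of these counts may hold reads of other genes. Expected counts were not whole numbers for 9 members, *Cdk4*, *Ccna2*, *Orc6*, *Orc2*, *Orc4*, *Hdac1*, *Cdc23*, *Pkmyt1* and *Ywhaq*, as happens where reads are divided among loci. In GENCODE M21, 24 members overlap another counted gene, among them *Ccne2* with *Ints8*, *Ccna2* with *Exosc9*, *Orc6* with *Vps35* and *Rb1* with *Lpar6* and *Rcbtb2*. The strand used in counting is not given in the sources used here, so reads of overlapping genes cannot be told apart.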

How the data were processed

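Primary chondrocytes were sequenced in 1 control and 1 *Myl3*-KO library. The study's methods describe mRNA enriched on oligo beads, random-primed cDNA and an Illumina Novaseq instrument, while the labels name a SMARTER kit. The authors deposited expected counts, not normalized, and FPKM values, scaled by length and library size and rounded. The submitters' processing notes name GRCm38 and mm10 as builds. The aligner, the counter and its version are not given in the sources used here. The column headed NC was read as control because the other is headed KO.

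Each expected count was scaled to its library's sum. For the ratio, counts under 3 were set to 3. Rounded counts gave 95% Clopper-Pearson intervals, which cover counting error only. Genes whose counts in both libraries came to 10 or more entered the comparison (called tested here). With 1 library per genotype, edgeR and DESeq2 have no residual degrees of freedom and gave only scaling factors. The ratio and the interval were tested on simulated data. A phase group of each member, other gene lists and the rule for named genes (all members may be named, with values for the largest ratios of each group with at least 50 counts and for chosen regulators) were written by hand. The members and lists were chosen with earlier results of these data known. Coordinates come from GENCODE M21 on GRCm38, in which all 96 members were found, and promoters from RefSeq on GRCm38.p6. Python 3.11.15, numpy 2.4.6, pandas 2.3.3, scipy 1.17.1, matplotlib 3.10.9, R 4.3.3, edgeR 4.0.16 and DESeq2 1.42.0 were used. Alternatives were other scalings, other filters on low counts, other limits of the fold, a ratio of FPKM values, and 1 count added to both libraries. The bins of GC content and length, the filter of 1000 counts and the rule without a fold limit were added after the data were seen.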

Additional observations from a re-analysis of the deposited data

How the results depend on the processing

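The number of cell cycle genes called lower depended on the limit of the fold. It was 7 as reported, 0 at 1.5-fold, 0 at 2-fold, and 49 with no limit on the fold, where 10 were called higher. TMM factors and DESeq2 size factors gave 11 each, adding *Bub1*, *Wee1*, *Myc* and *Pttg1*, beside 6.93% and 6.72% of all genes. The FPKM ratio gave 9. The number called higher was 0 as reported, 1 with the FPKM ratio (*Anapc2*) and 1 with no condition on the interval (*Sfn*). The median log2 ratio of the cell cycle genes stayed below 0 in each alternative run, from -0.16 with TMM factors to -0.09 with bins of GC content and length subtracted. With these bins the median of the SCF genes was -0.0437, against -0.16 as reported. The median of the G1/S transcription genes, 0.01 as reported, turned negative with either scaling, with the bins and among genes of at least 1000 counts, and no other group's median changed sign. The other medians moved by less than 0.11, the median half-width of the members' counting intervals. The ratio of the single genes stayed inside its counting interval for all 92 genes with TMM factors, DESeq2 size factors or 1 count added, and for 86 with the FPKM ratio. No paired analysis was possible because each genotype has 1 library. For the same reason no library could be left out.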

Other observations

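The deposited counts and FPKM values did not always give the same ratio. Counts divided by FPKM give the transcript length that the authors' values imply, up to a factor for each library that was removed with the median of 8352 genes of at least 5 FPKM in both libraries. This implied length differed between the libraries by over 0.1 on the log2 scale for 6 of 86 cell cycle genes, or 6.98%, and for 7.52% of all these genes. *Stag2*, which encodes a cohesin subunit, had the largest shift among the members, at -0.24, followed by *Ccne1* (-0.18), *Cdk6* (-0.17) and *Chek1* (-0.14), whose implied length was shorter in *Myl3*-KO. For *Anapc4* (0.18) and *Ccnh* (0.16) it was longer. On the FPKM scale the log2 ratio of *Ccne1* was -0.09, against -0.27 for its counts, and that of *Anapc2* was 0.34, against 0.25. Which transcripts lie behind these lengths was not tested.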
